A study of Mus musculus with 3143 samples.

Results

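Spp1, Fn1, Thbs1, Thbs2, Tnc, Postn, Sparc, Ctgf, Cyr61 and Ankrd1 were followed across the cell types of the mouse glomerulus, the filtering unit of the kidney, and across mice labelled IgAN and Control. They are 10 of the 46517 gene names in the count table, found there by symbol, and all 10 had reads. The 10 genes were chosen from values measured in these cells, including the contrast of IgAN with Control in the cells that resembled mesangial cells, so their levels and differences are a description and carry no test.

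The cells were single cells of the glomerular fraction of kidneys of adult C57BL/6 mice, sequenced by Smart-seq2, which reads polyadenylated RNA along its whole length from 1 sorted cell per well. IgAN stands for IgA nephropathy, in which IgA collects in the mesangium, and 1798 cells came from mice with that label, on plates 313, 315, 316, 318, 322 and 325. The mice labelled Control gave 1345 cells on plates 314, 317, 321 and 326. Kidneys of both groups were digested with collagenase IV, pronase E and DNase I, and cells stained with a viability dye were sorted into plates of 384 wells. How IgAN was brought about is not given in the sources used here, and neither is the animal behind a cell, so each group counts as 1 sample. No plate held both groups, so an effect of the plate cannot be told apart from one of the label, and each difference is set beside the spread between plates of a group.

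Matricellular proteins are secreted into the extracellular matrix, where they change how cells adhere, migrate and respond to growth factors rather than bearing load themselves. Osteopontin (Spp1), the thrombospondins (Thbs1, Thbs2), tenascin C (Tnc), periostin (Postn), SPARC and the CCN proteins CTGF and CYR61 belong to this class, and many of them bind integrins. Fibronectin (Fn1) is a structural glycoprotein that cells assemble into fibrils. Ankrd1 is not secreted: it encodes an ankyrin repeat protein of the nucleus and the sarcomere, and like Ctgf and Cyr61 it is a widely used readout of the coactivators YAP and TAZ, which act through TEAD factors. In the glomerulus, mesangial cells make and turn over the matrix between the capillaries, podocytes cover the capillaries from outside, and parietal epithelial cells line Bowman's capsule.

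Depth was similar in both groups, with a median of 231222 reads per cell in IgAN (plate medians 177508 to 396718) and 241543 in Control (199126 to 268281). Values are CPM, the reads of a gene per 1000000 reads in genes, summed over the cells of a class unless a single cell is named. Cells were put into classes by clustering without the 10 genes, and each class was named from marker genes with the ending "like". Mesangial-like cells (115 IgAN and 51 Control) carried all 10 mesangial markers at 10 CPM or more, at summed levels of 11326 CPM in IgAN and 12934 CPM in Control. Endothelial RNA also lay in cells of other classes. At least 3 endothelial markers reached 10 CPM in all 115 IgAN and all 51 Control mesangial-like cells. The same held in 193 of 193 IgAN and 101 of 103 Control macrophage or dendritic-like cells. Podocyte RNA was carried unevenly between the groups. At least 3 podocyte markers reached 10 CPM in 40 of 115 IgAN and 45 of 51 Control mesangial-like cells. Over all classes they did so in 487 of 1798 IgAN and 1082 of 1345 Control cells. The part of carried podocyte RNA in the differences was not tested. Intervals are exact 95% intervals and cover counting error only, because reads were counted without molecular identifiers and may be copies of 1 molecule.

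The 10 genes spanned a wide range of abundance. Sparc had the sixth highest read total of all names and at least 1 read in each of the 3143 cells, while Ankrd1 ranked 12614 and was read in 129 cells. Cyr61 was read in 2675 cells, Ctgf in 2421, Spp1 in 1984, Thbs1 in 1165, Thbs2 in 1158, Fn1 in 975, Tnc in 432 and Postn in 226. Divided by exon length, CPM per kilobase in mesangial-like cells put Ctgf first in IgAN (1212 in IgAN, 869 in Control) and Sparc first in Control (975 in IgAN, 1081 in Control). Cyr61 (569 in IgAN, 622 in Control) and Thbs1 (164 in IgAN, 116 in Control) followed in both groups. The lowest in IgAN was Fn1, at 3.82 CPM per kilobase in IgAN and 0.0980 in Control, and the lowest in Control was Ankrd1, at 21.4 in IgAN and 0 in Control.

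**Figure D1:**
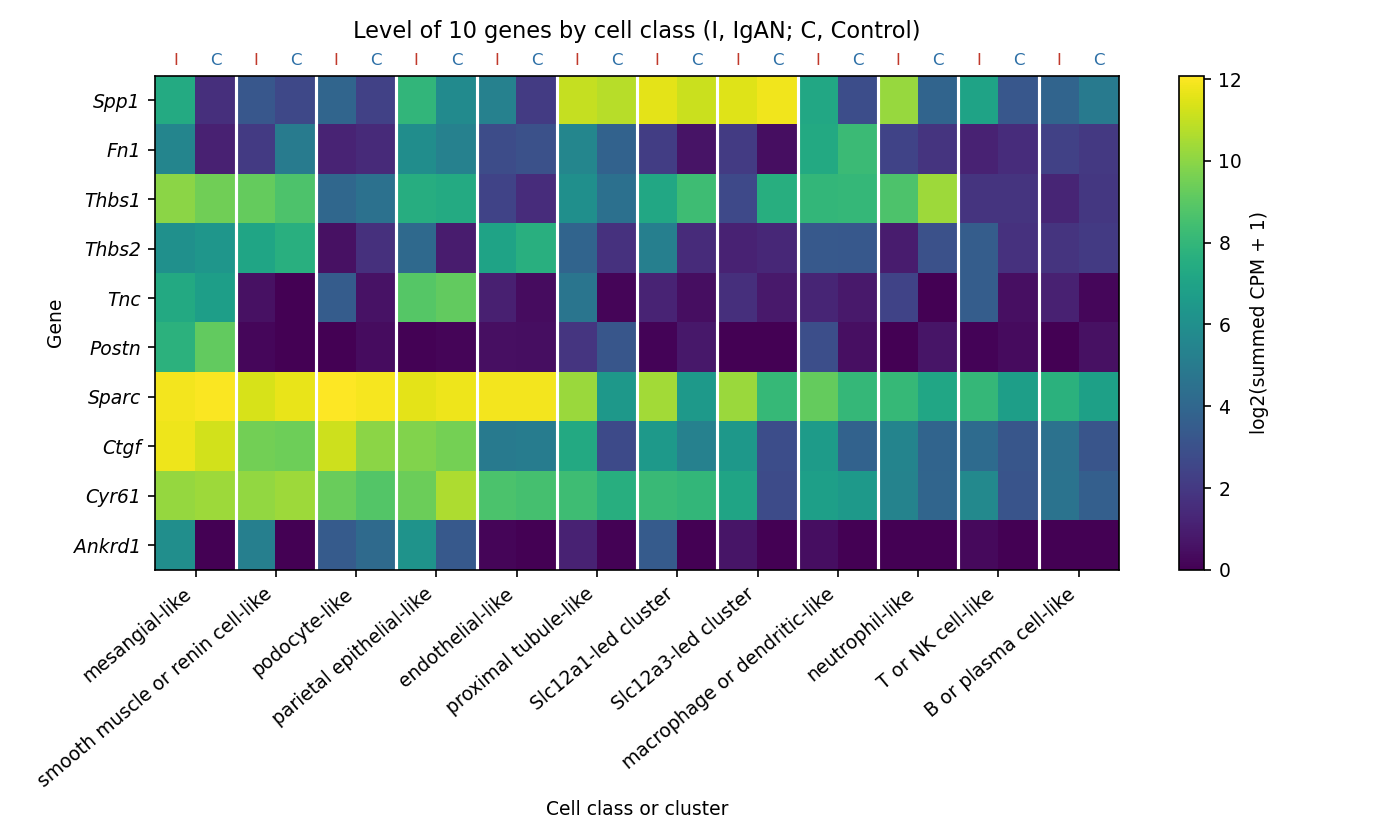
Level of each of the 10 genes (summed CPM, colour on a log scale) in each class of cells, IgAN beside Control. Postn is high in mesangial-like cells, where 94.4% of its reads lay, Tnc is highest in parietal epithelial-like cells, and Spp1 is high in the tubule-type cells of both groups.

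Most of the genes had 1 class of cells that held most of their reads. Postn, on chromosome 3 (54361109 to 54391037, plus strand; all positions are GRCm38), was the most restricted, with 94.4% of its reads over both groups in mesangial-like cells. Thbs2 (chromosome 17, 14665500 to 14694235, minus strand), which encodes an antiangiogenic thrombospondin, had 88.9% of its reads in endothelial-like cells. Within that class Thbs2 was a gene of the cluster led by Fbln5, a gene of elastic fibres: 747 CPM in IgAN and 1005 CPM in Control there, against 60.7 CPM in IgAN and 46.4 CPM in Control in the other endothelial-like cells. Fn1 (chromosome 1, 71585520 to 71653200, minus strand) lay mainly in macrophage or dendritic-like cells, which held 68.8% of its reads. Both Thbs2 and Fn1 were among the genes that lead those clusters, so the clusters' levels of them are no independent finding.

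Tnc (chromosome 4, 63959785 to 64047015, minus strand), a glycoprotein made at sites of tissue remodelling, was a gene of parietal epithelial-like cells first and of mesangial-like cells second, with 63.0% and 28.2% of its reads. Its level in parietal epithelial-like cells was 480 CPM in the 50 IgAN cells and 583 CPM in the 24 Control cells, and 37 of the 50 IgAN cells and 17 of the 24 Control cells reached 10 CPM. Ctgf (chromosome 10, 24595442 to 24598683, plus strand), a CCN protein linked to fibrosis, had 58.8% of its reads in IgAN and 35.3% in Control in mesangial-like cells, and 15.5% in IgAN and 48.6% in Control in podocyte-like cells. Such shares also follow the number of cells of a class, and podocyte-like cells numbered 39 in IgAN and 146 in Control. Cyr61 (chromosome 3, 145646976 to 145649981, minus strand) was spread more widely: smooth muscle or renin-like cells had 1130 CPM in IgAN and 1279 CPM in Control, mesangial-like cells 1150 CPM in IgAN and 1257 CPM in Control, and endothelial-like cells 398 CPM in IgAN and 366 CPM in Control. Those levels of Cyr61 in smooth muscle or renin-like and mesangial-like cells overlapped within the range of the mesangial-like plates, 668 to 1409 CPM in IgAN and 972 to 1455 CPM in Control.

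Sparc (chromosome 11, 55394500 to 55423183, minus strand), which binds collagen and shapes basement membranes, was high in every resident class of the glomerulus. It reached 4337 CPM in IgAN and 3846 CPM in Control in podocyte-like cells, 3693 CPM in IgAN and 4096 CPM in Control in mesangial-like cells, and 3688 CPM in IgAN and 3793 CPM in Control in endothelial-like cells. The order of these classes did not stand beyond the plates, since mesangial-like plates ran from 2551 to 4809 CPM in IgAN and endothelial-like plates from 2915 to 4509 CPM. Leukocytes had far less, as in T or NK-like cells with 261 CPM in IgAN and 108 CPM in Control.

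Thbs1 (chromosome 2, 118111876 to 118127133, plus strand), an activator of latent TGF-beta, had 50.8% of its reads in IgAN and 31.6% in Control in mesangial-like cells, and 24.3% in IgAN and 26.0% in Control in macrophage or dendritic-like cells. In leukocytes it was uneven. The 8 IgAN neutrophil-like cells had 415 CPM and the 12 Control cells 1271 CPM, but 1 cell held 98.3% of the IgAN reads and 1 cell 72.3% of the Control reads. A cluster of 16 cells led by the platelet gene Ppbp had 0 reads of Thbs1 in 6 IgAN cells and 1688 CPM in 10 Control cells, of which 1 cell held 47.1% of the reads.

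Ankrd1 (chromosome 19, 36111961 to 36120099, minus strand) had most of its reads in few cells, and in other classes in IgAN than in Control. In mesangial-like cells lay 47.8% of its reads in IgAN and 0% in Control. Parietal epithelial-like cells held 36.0% in IgAN and 8.83% in Control, the latter from 1 cell. Podocyte-like cells held 3.15% in IgAN and 90.4% in Control. These shares also follow the number of cells, 39 IgAN and 146 Control podocyte-like cells. All Control reads of Ankrd1 came from 18 cells, of which 1 held 34.6%. In endothelial-like cells 1 of 990 IgAN cells and 0 of 603 Control cells reached 10 CPM. The exact interval for 0 of 603 cells reaches up to 0.610%. Median depth was 232876 reads in IgAN and 258947 in Control in endothelial-like cells, and 207662 reads in IgAN and 220673 in Control in mesangial-like cells.

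The comparison that the labels imply is IgAN against Control within a class. A gene was measured in a class when it reached 10 CPM and was read in 10% of the cells of 1 group. It met the size rule when log2 of IgAN minus Control, with 1 CPM added to each, was at least 1 in size and every plate of one group lay above every plate of the other, counting plates with at least 10 cells of the class. In mesangial-like cells all 10 genes were measured, 3 met the size rule as higher in IgAN (Spp1, Fn1 and Ankrd1) and 0 as lower. Over all 10160 genes measured there, 1.26% met it as higher and 1.49% as lower. Because the genes were picked with this contrast in view, nothing is read from the count. The median log2 difference was 0.49 over the 10 genes and 0.02 over all measured genes.

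**Figure D2:**
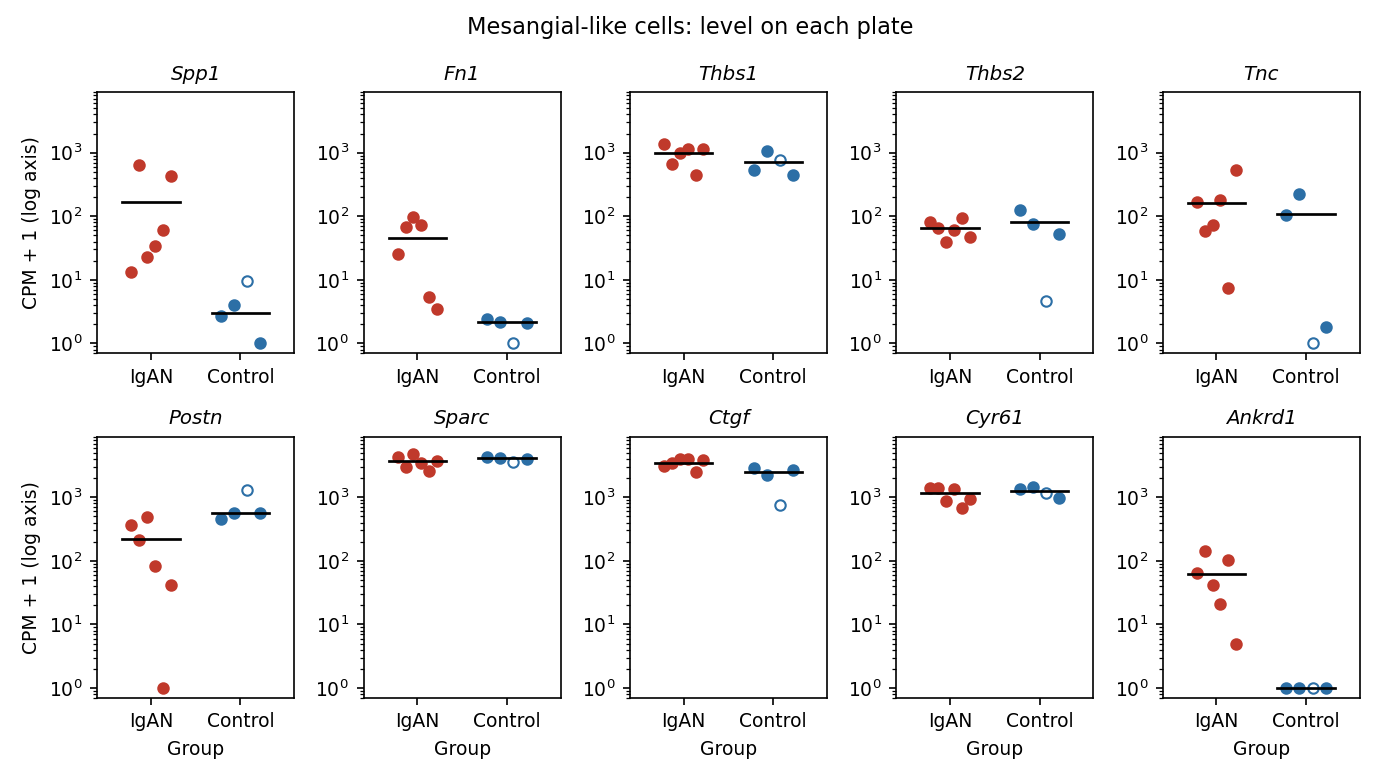
CPM + 1 (log scale) of each gene in mesangial-like cells, each filled point 1 plate with at least 10 such cells, the open point Control plate 321 with 4 cells and the line the level summed over the group, IgAN left of Control. Every IgAN plate lies above every Control plate for Spp1, Fn1 and Ankrd1, while filled points of the groups overlap for the other 7 genes.

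Spp1 (chromosome 5, 104435118 to 104441050, plus strand) encodes osteopontin, a cytokine and integrin ligand that kidney tubule cells make. Across IgAN plates 313, 315, 316, 318, 322 and 325 its level in mesangial-like cells was 12.1, 632, 22.2, 32.8, 60.8 and 425 CPM, against 1.67, 3.03 and 0 CPM on Control plates 314, 317 and 326. The lowest IgAN plate was thus above the highest of these Control plates, but the IgAN plates differed among themselves more than the lowest of them differed from Control. Control plate 321, with 4 such cells, had 8.49 CPM. Summed, the level was 168 CPM (162.8 to 172.7) in IgAN and 2.06 CPM (1.36 to 3.00) in Control, a log2 difference of 5.78 with a between-plate SD of 1.78. A single IgAN cell held 33.3% of the IgAN reads, and most of those reads came from 2 cells. With mesangial cells taken by a gate instead of a cluster, 3 or more of Pdgfrb, Itga8, Gata3, Serpine2 and Ptn at 10 CPM, there were 279 IgAN and 80 Control cells. Spp1 then differed by 3.13 in log2 and no longer met the size rule, and neither did Fn1.

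Fn1 was at 24.1, 66.7, 95.5, 71.1, 4.28 and 2.46 CPM on the IgAN plates in the same order, against 1.43, 1.17 and 1.06 CPM on Control plates 314, 317 and 326. IgAN plates 322 and 325 were close to the Control plates, and the other 4 IgAN plates were far above them. The log2 difference was 4.41, with a between-plate SD of 1.46. With broader clusters (136 IgAN and 62 Control cells at resolution 0.5) it was 2.15 and Fn1 did not meet the size rule. At 10 CPM or more Fn1 was found in 19 of 115 IgAN cells (16.5%, 10.3 to 24.6) and in 2 of 51 Control cells (3.92%, 0.478 to 13.5). In endothelial-like cells that share was 8.08% in IgAN and 6.63% in Control. The mesangial-like level in IgAN, 44.7 CPM, remained far under that of the macrophage or dendritic-like cluster led by Cd209a, 466 CPM in IgAN and 566 CPM in Control.

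Ankrd1 had 62.9, 142, 41.3, 19.7, 101 and 4.00 CPM on the IgAN plates and 0 reads on each Control plate, with 1637 reads in IgAN in all. With 3 counts as the floor for the Control group (0.229 CPM), the summed IgAN level was 269 times that floor. IgAN plate 325, at 4.00 CPM, was far nearer to it. The ratio covers counting error only and is no lower bound, since 1 cell held 23.6% of the IgAN reads. The reads came from 9, 3, 7, 2, 3 and 1 cells of the 6 IgAN plates, so every IgAN plate had a positive cell but plate 325 only 1. In 21 of 115 IgAN cells (18.3%, 11.7 to 26.5) Ankrd1 reached 10 CPM, and 0 of 51 Control cells did (0%, 0 to 6.98). Reads of Ankrd1 were present on all 4 Control plates in another class: podocyte-like cells had 6.32, 28.5, 16.4 and 19.9 CPM on plates 314, 317, 321 and 326.

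Most IgAN cells with any of these 3 genes held 1 of them. Of the 115 IgAN mesangial-like cells, 39 held none of Spp1, Fn1 and Ankrd1 at 10 CPM or more, 60 held 1 of them, 13 held 2 and 3 held all 3. In Control, 44 of 51 cells held none and 7 held 1. Spp1 was at that level in 55 IgAN cells, and 9 of those were among the 21 cells with Ankrd1 and 9 among the 19 cells with Fn1. Both Fn1 and Ankrd1 were at that level in 4 cells.

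**Figure D3:**
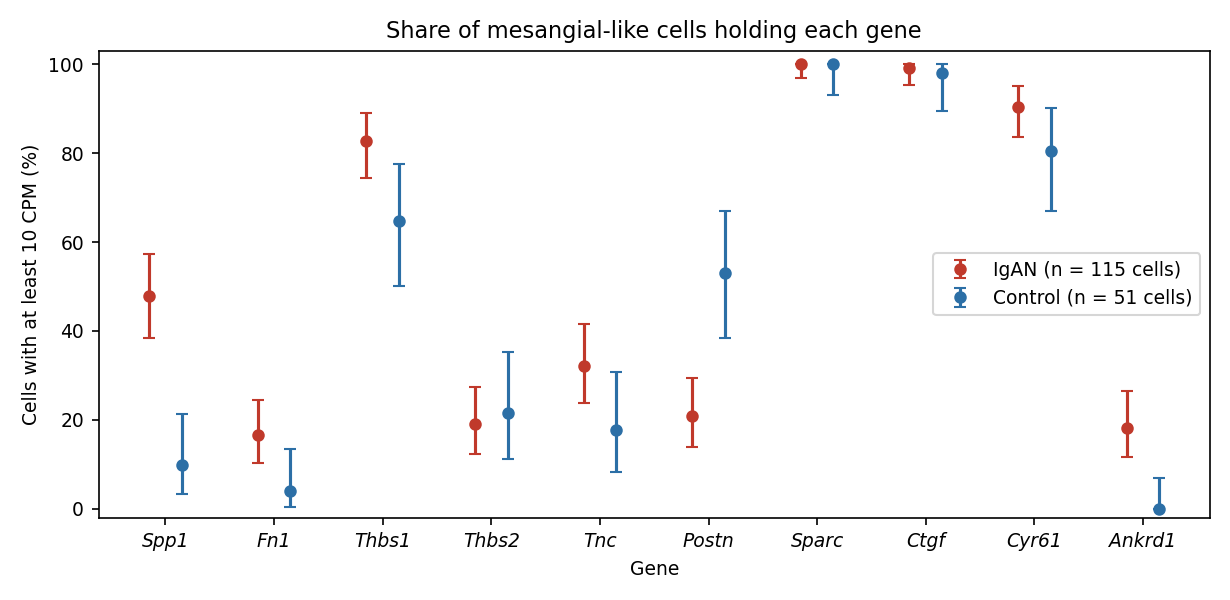
Share of mesangial-like cells with at least 10 CPM of each gene (percent, with exact 95% binomial intervals that cover counting error only), IgAN left of Control. The share of Spp1 was 47.8% in IgAN and 9.80% in Control, that of Ankrd1 18.3% in IgAN and 0% in Control, and that of Postn 20.9% in IgAN and 52.9% in Control.

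Postn had the opposite sign and did not meet the size rule. Its level was 366, 209, 493, 82.1, 0 and 40.3 CPM on the 6 IgAN plates, against 456, 564 and 555 CPM on Control plates 314, 317 and 326. All IgAN plates except 316 were below the lowest of those Control plates, so the groups overlapped by that single plate. The summed level was 220 CPM (213.9 to 225.2) in IgAN and 574 CPM (560.9 to 587.0) in Control, a log2 difference of -1.38 with a between-plate SD of 2.34. Postn was at 10 CPM or more in 24 of 115 IgAN cells (20.9%, 13.9 to 29.4) and 27 of 51 Control cells (52.9%, 38.5 to 67.1). At 100 CPM or more the shares were 20.0% in IgAN and 52.9% in Control. Thinning each cell to 50000 reads left the shares of cells with a read at 20.9% in IgAN and 52.9% in Control. Without plate 314 or without plate 316, and with cells taken by the gate or at resolution 0.5, Postn met the size rule as lower in IgAN.

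The remaining genes overlapped between the groups in mesangial-like cells. Tnc was at 170, 57.4, 70.8, 180, 6.43 and 525 CPM on the IgAN plates, against 105, 224 and 0.793 CPM on Control plates 314, 317 and 326, and plates of both groups lay near 0. By cell, 36 of the 37 IgAN cells with Tnc at 10 CPM or more also held Thbs1, which 95 of the 115 IgAN cells held. Thbs1 itself was at 1346, 667, 971, 1127, 451 and 1141 CPM on the IgAN plates, against 542, 1072 and 450 CPM on the Control plates, a log2 difference of 0.50 with a between-plate SD of 0.63. Thbs2 differed by -0.29 (between-plate SD 0.56), Sparc by -0.15 (0.24) and Cyr61 by -0.13 (0.39), all within that spread.

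Ctgf was the member of this remaining group whose difference exceeded the spread between plates, with 3056, 3495, 4062, 4009, 2504 and 3827 CPM on the IgAN plates and 2902, 2266 and 2649 CPM on the Control plates. IgAN plate 322 lay among the Control plates and the other 5 above them. The log2 difference was 0.48, with a between-plate SD of 0.23, but it was 0.02 in cells taken by the gate. Ctgf was abundant in both groups, at 10 CPM or more in 114 of 115 IgAN cells and 50 of 51 Control cells.

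Among the 3 genes used as readouts of YAP and TAZ, Ankrd1 had no read in Control mesangial-like cells while Ctgf and Cyr61 were abundant in both groups. Promoter windows were in the RefSeq tables for 7 of the 10 genes, each 250 bases before to 50 bases after the start. They were searched on both strands for GGAATG, the core bound by TEAD factors. The letters occurred in the windows of Cyr61 and Ankrd1 and not in those of Spp1, Thbs2, Tnc, Postn and Sparc. Of 32851 promoters in the same table, 14.7% held them. TGANTCA, the letters of AP-1, occurred in none of the 7 genes' windows and in 7.81% of all promoters. The CArG box, bound by serum response factor, was also in none of the 7 and in 1.63% of all. These matches describe the letters only. The windows are shown because they hold the motif of the factors for which both genes serve as readouts, written 5′ to 3′ on the gene's strand with the motif or its reverse complement CATTCC in capitals. That of Cyr61 is chr3:145649936-145650235, minus strand, and that of Ankrd1 is chr19:36119795-36120094, minus strand, both GRCm38.p6.
Cyr61: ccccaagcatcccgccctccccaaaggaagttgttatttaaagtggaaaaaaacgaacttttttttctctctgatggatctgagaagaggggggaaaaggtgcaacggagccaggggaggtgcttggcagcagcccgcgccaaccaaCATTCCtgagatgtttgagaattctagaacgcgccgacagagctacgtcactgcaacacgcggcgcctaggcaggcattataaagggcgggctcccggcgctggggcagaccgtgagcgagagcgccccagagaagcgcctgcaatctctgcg
Ankrd1: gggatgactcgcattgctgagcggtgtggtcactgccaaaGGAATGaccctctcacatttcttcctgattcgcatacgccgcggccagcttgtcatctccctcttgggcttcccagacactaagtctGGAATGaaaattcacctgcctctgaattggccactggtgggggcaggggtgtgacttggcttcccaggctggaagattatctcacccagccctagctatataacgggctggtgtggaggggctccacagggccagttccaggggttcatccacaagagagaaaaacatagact
The first base of the match lay 103 bases upstream of the start in Cyr61, and 210 and 123 bases upstream for the 2 matches in Ankrd1.

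Most Spp1 reads lay in tubule-type cells, so its levels elsewhere were set beside the tubule markers that other cells carried. Over both groups, proximal tubule-like cells held 51.9% of all Spp1 reads and the clusters led by Slc12a1 and Slc12a3, salt carriers of the distal nephron, 32.1%. The level was 2102 CPM in IgAN and 1764 CPM in Control in proximal tubule-like cells, a log2 difference of 0.25 with a between-plate SD of 0.28. Slc12a1-led cells had 3081 CPM in IgAN and 2206 CPM in Control, and Slc12a3-led cells 2882 CPM in IgAN and 3580 CPM in Control.

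Spp1 was also read in endothelial-like cells and leukocytes, among which macrophages and activated T cells are known to make osteopontin. Endothelial-like cells had 39.0 CPM in IgAN and 3.30 CPM in Control, and T or NK-like cells 130 CPM in IgAN and 8.81 CPM in Control. In macrophage or dendritic-like cells the levels were 148 CPM in IgAN and 6.31 CPM in Control, and in B or plasma-like cells 13.8 CPM in 26 IgAN cells and 29.1 CPM in 117 Control cells. None of the first 3 met the size rule, since plates overlapped: endothelial-like cells had 3.08, 65.3, 13.7, 38.5, 58.2 and 63.7 CPM on the IgAN plates and 3.45, 3.10, 11.2 and 0.459 CPM on Control plates 314, 317, 321 and 326. IgAN plate 313 was the low one in each of these classes, and it also had the lowest share of tubule-type cells among the IgAN plates, 12 cells or 3.26%. Plate 322, with 4.17% tubule-type cells, had 58.2 CPM in endothelial-like and 257 CPM in T or NK-like cells. T or NK-like cells of IgAN plates 313, 315, 316, 318 and 325 had 3.77, 40.0, 5.49, 70.85 and 259 CPM. Those of Control plates 314, 317, 321 and 326 had 12.7, 2.57, 16.2 and 1.06 CPM. Without plate 322 the log2 difference in T or NK-like cells was 2.62 in place of 3.74.

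**Figure D4:**
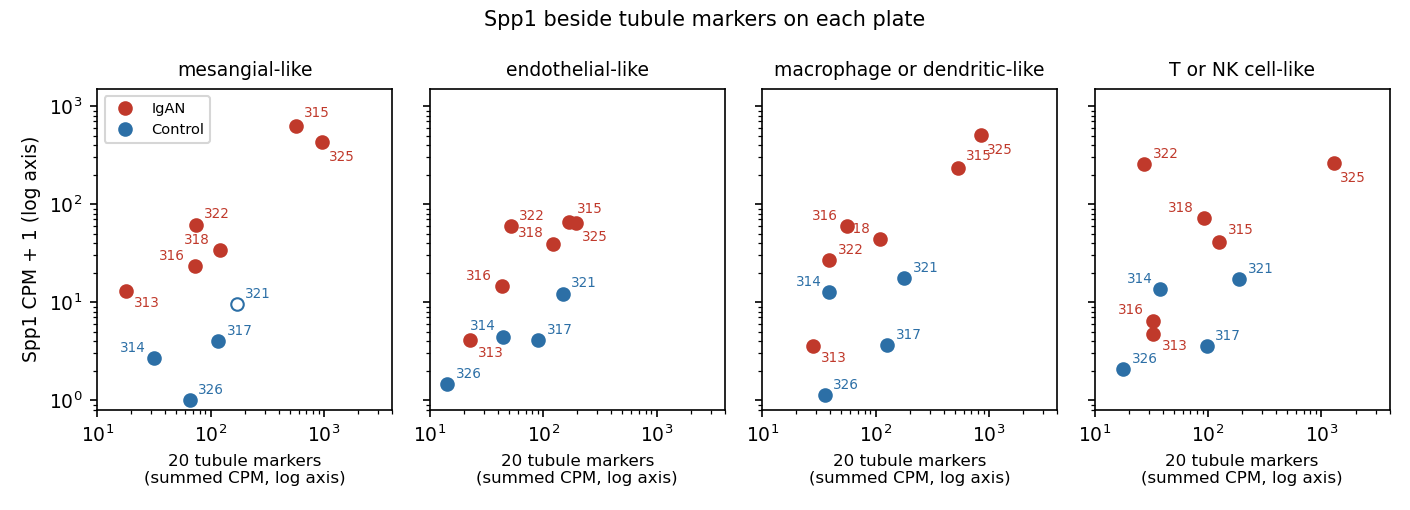
Spp1 (CPM + 1) against the summed markers of proximal and distal tubule (CPM), both on log scales, in 4 classes that are not tubule classes. Each point is 1 plate with its number, red for IgAN and blue for Control, and open where the plate had fewer than 10 cells of the class. IgAN plates with high tubule markers, such as 315 and 325, also have high Spp1 in mesangial-like and macrophage or dendritic-like cells.

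Plates 315 and 325, on which 27.6% and 23.5% of the cells were of tubule type, had the highest mesangial-like levels of Spp1. Control plate 321 had 24.2% tubule-type cells and 11.2 CPM of Spp1 in endothelial-like cells. Summed over the 10 proximal tubule markers, mesangial-like cells carried 142 CPM in IgAN (plates 5.09 to 925) and 37.4 CPM in Control (1.06 to 72.0), with 4 markers at 10 CPM or more in IgAN and 1 in Control and none at 0 in either. The 10 distal markers came to 108 CPM in IgAN (12.2 to 474) and 40.5 CPM in Control (7.14 to 64.2), with Aqp2, Atp6v1g3, Scnn1g and Cldn8 at 0 in Control. Spp1 reads per read of the markers of both tubule lists were 0.669 in IgAN and 0.0264 in Control in mesangial-like cells. By plate this ratio ran from 0.273 to 1.12 in IgAN and from 0 to 0.0530 in Control. In proximal tubule-like cells themselves it was 0.227 in IgAN and 0.102 in Control.

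The split by cell was wide. In IgAN, the 31 mesangial-like cells that carried at least 3 proximal or 3 distal tubule markers at 10 CPM or more had 774 CPM of Spp1, and 28 of them reached 10 CPM. The other 84 IgAN cells had 24.1 CPM, and 27 of them reached 10 CPM. In Control, 9 carrying cells had 9.06 CPM and the other 42 had 1.05 CPM. Without the carrying cells Spp1, Fn1 and Ankrd1 met the size rule on 3 IgAN and 2 Control plates. IgAN plates 315, 322 and 325, the 3 highest in Spp1, then had fewer than 10 such cells and did not count. Fewer plates make the rule easier to meet, and the share of all genes that met it was not computed there. Levels of the other 2 genes were lower in the carrying cells: Fn1 had 3.15 CPM in carrying IgAN cells and 54.5 CPM in the others, and Ankrd1 30.3 CPM in carrying IgAN cells and 69.1 CPM in the others. Fn1 is chiefly a macrophage or dendritic gene here, and the 10 markers of that class summed to 178 CPM in IgAN (89.2 to 319) and 124 CPM in Control (59.2 to 197) in mesangial-like cells, with none at 0. The part of these carried markers in the differences was not tested.

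Parietal epithelial-like cells, in which too few plates had 10 cells for the size rule, also held Ankrd1. It reached 10 CPM in 12 of 50 IgAN cells (24.0%, 13.1 to 38.2) and in 1 of 24 Control cells (4.17%, 0.105 to 21.1), and the summed levels were 72.9 CPM in IgAN and 9.45 CPM in Control. By plate the IgAN levels were 54.5, 58.5, 88.3, 64.4, 215 and 0 CPM, against 0, 0, 0 and 21.2 CPM in Control, so IgAN plate 325 lay with the Control plates. Spp1 in these cells was 250 CPM in IgAN and 53.6 CPM in Control. Cyr61 was at 670 CPM in IgAN and 1561 CPM in Control, though Control plate 321 had 480 CPM and lay within the IgAN plates. Parietal markers were carried by mesangial-like cells too, at 1710 CPM in IgAN (919 to 2075) and 527 CPM in Control (254 to 887), with Pax2 and Krt18 at 0 in Control. In smooth muscle or renin-like cells Ankrd1 was at 35.9 CPM in 21 IgAN cells and 0 CPM in 11 Control cells, of which 2 IgAN cells reached 10 CPM.

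In podocyte-like cells (39 IgAN and 146 Control) 7 of the 10 genes were measured, and 0 met the size rule as higher and 0 as lower. Over all 9547 genes measured, 3.73% met it as higher and 6.35% as lower, with 2 IgAN plates and 4 Control plates of 10 cells. The median log2 difference was 0.47 over the 7 and -0.06 over all measured genes. Ctgf was at 2258 CPM in IgAN and 1017 CPM in Control, a log2 difference of 1.15 with a between-plate SD of 0.74. IgAN plates 313 and 316 had 2895 and 1300 CPM, against 1213, 575, 1616 and 807 CPM on the Control plates, so plate 321 overlapped with plate 316. Ankrd1 was at 10.1 CPM in IgAN and 17.0 CPM in Control. Tnc had 10.3 CPM in IgAN and 0.522 CPM in Control, but 1 cell held 97.3% of the IgAN reads.

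In endothelial-like cells (990 IgAN and 603 Control) 5 genes were measured, and 0 met the size rule as higher, against 0.776% of all genes, and 0 as lower, against 0.745%. Their median log2 difference was -0.04, and that of all measured genes 0.01. Sparc, the most abundant of them there, differed by -0.04 in log2, and Cyr61 by 0.12 with a between-plate SD of 0.73. Thbs2 was at 126 CPM in IgAN and 198 CPM in Control, a difference of -0.65 with a between-plate SD of 0.70. The Fbln5-led cells, in which Thbs2 is high, were 100 of 990 endothelial-like cells in IgAN and 101 of 603 in Control, and without them the difference turned to 0.38. Different clusters held most of the class in each group: the one led by Fgf1 had 58 IgAN and 421 Control cells, the one led by Hspg2 had 331 IgAN and 65 Control cells, the one led by Gm20659 had 284 IgAN and 14 Control cells, and the one led by 4930443O20Rik had 217 IgAN and 2 Control cells.

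In macrophage or dendritic-like cells 6 genes were measured and 0 met the size rule in either direction, against 0.737% of genes as higher and 0.454% as lower. The median log2 difference was 0.75 over the 6 and 0.06 over all measured genes. Fn1 was at 162 CPM in IgAN and 305 CPM in Control, and plates ran from 8.41 to 575 CPM in IgAN and from 67.9 to 639 CPM in Control. Within the Cd209a-led cluster, Fn1 was at 10 CPM or more in 19 of 52 IgAN cells and 20 of 45 Control cells. Thbs1 was at 253 CPM in IgAN and 261 CPM in Control in the whole class, a log2 difference of -0.04 that became 1.10 without Control plate 326 and -0.62 without IgAN plate 313. In the cluster led by Treml4, a gene of nonclassical monocytes, it had 192 CPM in IgAN, of which 1 cell held 21.3% of the reads, and 3.88 CPM in Control. In T or NK-like cells 6 genes were measured and 0 met the size rule, against 0.466% of genes as higher and 1.25% as lower. Cyr61 was at 49.8 CPM in IgAN and 7.89 CPM in Control there, and Tnc at 10.7 CPM in IgAN, with 80.1% of the reads in 1 cell, and 0.421 CPM in Control. The median log2 difference of the 6 was 2.17, with a single plate far above the others for Sparc, Tnc and Cyr61, and that of all measured genes 0.05.

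In proximal tubule-like cells (144 IgAN and 85 Control) 8 genes were measured, and 3 met the size rule as higher, namely Tnc, Sparc and Ctgf, against 6.62% of all genes. None was lower, against 2.21%. The median log2 difference was 1.96 over the 8 and 0.32 over all measured genes, and TMM scaling, which estimates a factor per group from most genes, moved the latter by -0.28. Sparc was at 1470, 200, 277 and 1857 CPM on IgAN plates 315, 316, 318 and 325, against 95.6, 119 and 61.8 CPM on the Control plates 314, 317 and 321. Plates 315 and 325 stood far above the other IgAN plates. Summed, Sparc had 1225 CPM in IgAN and 86.6 CPM in Control (log2 3.81), Ctgf 159 CPM in IgAN and 5.65 CPM in Control (4.59), and Tnc 25.1 CPM in IgAN and 0.107 CPM, from 2 reads, in Control (4.56). A single cell held 43.5% of the IgAN reads of Tnc, the lowest IgAN plate of Tnc (0.276 CPM) was barely above the highest Control plate (0.257 CPM), and Tnc did not meet the rule without plate 315 or under TMM or median of ratios scaling. Neither Tnc nor Ctgf met it without cells that carried markers of at least 2 of the podocyte, mesangial and endothelial classes. That setting left 83 IgAN and 31 Control cells and 1 Control plate, with which the rule is easier to meet. Sparc met it there, and so did Fn1 and Thbs1, which had not met it with all cells of the class.

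Endothelial markers moved with Sparc. Their summed level in proximal tubule-like cells was 5357, 226, 896 and 9456 CPM on IgAN plates 315, 316, 318 and 325. On the Control plates it was 197, 311 and 151 CPM. Endothelial markers ranked the 4 IgAN plates in the same order as Sparc did. All 10 endothelial markers were at 10 CPM or more in IgAN and 6 in Control, and none was at 0. All 144 IgAN cells and 79 of 85 Control cells carried at least 3 of those markers at 10 CPM or more, so the comparison without such cells left 0 IgAN cells. Mesangial markers summed to 154, 186, 173 and 625 CPM on the same IgAN plates. On the Control plates they summed to 67.6, 25.2 and 59.5 CPM, so each of these IgAN plates was above every Control plate. Among these 4 IgAN plates mesangial markers were lowest on plate 315, so they did not rank the plates as Sparc did. At least 3 mesangial markers reached 10 CPM in 45 of 144 IgAN cells and 6 of 85 Control cells. At least 3 parietal epithelial markers did so in 38 of 144 IgAN cells and 1 of 85 Control cells, although their summed level was 407 CPM in IgAN and 439 CPM in Control. The proximal tubule markers themselves were at 8743 CPM in IgAN and 17278 CPM in Control. The part of the carried RNA in the 3 differences was not tested.

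**Figure D5:**
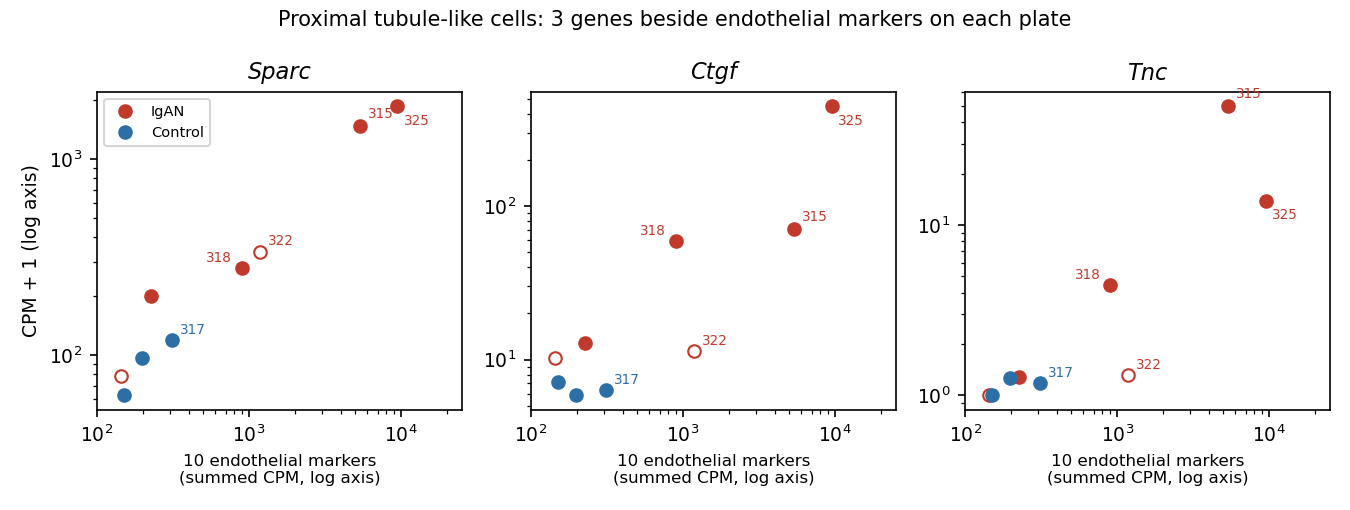
Sparc, Ctgf and Tnc (CPM + 1) against the summed endothelial markers (CPM) in proximal tubule-like cells, all on log scales, each point 1 plate, red for IgAN and blue for Control, and open where the plate had fewer than 10 such cells. Plates above 300 CPM of endothelial markers carry their number. IgAN plates 315 and 325 have the most endothelial marker reads and the most Sparc.

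Lists of related genes gave the setting in mesangial-like cells, where the median log2 over all measured genes was 0.02 and 1.26% of them met the size rule as higher and 1.49% as lower. Of 18 receptors of matricellular proteins 12 were measured, and 2 met the size rule as higher and 0 as lower, with a list median of -0.11. Those were Cd36, a scavenger receptor that binds thrombospondins, at 32.5 CPM in IgAN (7.85 to 146 by plate) and 5.88 CPM in Control (4.76 to 6.76), and Stab1, a scavenger receptor that takes up SPARC, at 32.9 CPM in IgAN (17.2 to 90.1) and 12.0 CPM in Control (11.1 to 15.8). The most abundant receptors were the integrin chains Itga8, at 1759 CPM in IgAN and 1405 CPM in Control, and Itgb1, at 1261 CPM in IgAN and 1335 CPM in Control. Cd36 is also high in endothelial-like cells, at 736 CPM in IgAN and 339 CPM in Control. Stab1 is among the leading genes of the endothelial-like cluster led by Hspg2.

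Among 24 targets and partners of YAP and TEAD 18 were measured, 1 was higher and 0 lower, and the list median was 0.14. The gene was Gadd45a, which encodes a stress response protein, at 30.7 CPM in IgAN (6.04 to 90.4) and 3.43 CPM in Control (1.86 to 5.95). The most abundant were Amotl1, at 556 CPM in IgAN and 498 CPM in Control, and Nt5e, at 534 CPM in IgAN and 818 CPM in Control. Among 16 targets of SRF and its coactivators 14 were measured, 1 was higher and 0 lower, with a median of 0.21. Tagln, which encodes the smooth muscle protein transgelin, had 112 CPM in IgAN (32.9 to 239) and 10.3 CPM in Control (2.38 to 24.9), while Myl9 and Vcl were level, at 2273 and 1895 CPM in IgAN and 2272 and 1862 CPM in Control. Smooth muscle or renin markers, of which Tagln is 1, summed to 743 CPM in IgAN and 513 CPM in Control in these cells. At least 3 of them reached 10 CPM in 21 of 115 IgAN and 1 of 51 Control mesangial-like cells. The part of such cells in the difference of Tagln was not tested. The lists of other matricellular genes (9 of 25 measured, median 1.05) and of TGF-beta response and matrix turnover (14 of 18 measured, median 0.93) had 0 genes that met the rule. Their most abundant members were Igfbp7, at 3977 CPM in IgAN and 3712 CPM in Control, Bgn, at 2637 CPM in IgAN and 2800 CPM in Control, and, for the second list, Mmp2, at 1934 CPM in IgAN and 1615 CPM in Control, and Adamts1, at 1541 CPM in IgAN and 1128 CPM in Control. None of Tagln, Cd36 and Stab1 met the rule in cells taken by the gate. Tagln also did not at resolution 0.5, where its log2 difference was 0.62 in place of 3.32. Stab1 did not at resolution 2, where it was 0.22 in place of 1.39, nor without plate 325 or with a threshold of log2 2. Cd36 did not at resolution 2 or by the mean of the cells' CPM. Gadd45a did not under TMM or median of ratios scaling, nor when the 10 genes were kept among the genes used for clustering.

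For 7 of the 10 genes, Thbs2, Tnc and Postn not among them, the genes with the most similar pattern were ranked by Pearson's r of log2 CPM over 59 sums of a class on a plate, from 8 classes, as a description without a test, since the sums share plates, depth and class. Spp1 was nearest to the tubule genes Pdzk1ip1 (r = 0.87) and Fxyd2 (0.86), besides RP24-299A7.2 (0.96). Ankrd1 was nearest to Foxs1 (0.87), Tgfb3 (0.86) and Gm37804 (0.83), and Fn1 to Hp (0.77), Pid1 (0.76) and Cd300lb (0.75). Thbs1 and Ctgf were near to antisense partners, Thbs1 to Lrp1 (0.87) and Gm29233 (0.86), and Ctgf to Gm15270 (0.995), Rbms3 (0.94) and Atp1b2 (0.94). Gm29233 overlaps exons of Thbs1, and Gm15270 those of Ctgf, on the other strand. Apol7d overlaps Fn1 and 8030451A03Rik overlaps Tnc in the same way, and Gm42793 overlaps Spp1 on the same strand. The strand setting of the counting is not given in the sources used here, so reads of such partners cannot be told apart. Sparc was nearest to Tm4sf1 (0.98), Bcam (0.96) and Fstl1 (0.96), and Cyr61 to Lama5 (0.90), Cttn (0.89) and Bcar1 (0.88).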

How the data were processed

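Per the labels, single cells of glomerular fractions were sorted into plates and sequenced by Smart-seq2. The deposited table holds raw counts, whole numbers of reads per gene name and cell with no normalization. Tools listed in the submitters' processing notes are featureCounts with Subread 1.4.6-p5, TopHat2 2.1.1 and SAMtools 0.1.18, and the build listed is GRCm38 (mm10). Which gene annotation and strand setting were used is not given in the sources used here. The total was 816735155 reads, with 50365 to 1135415 per cell, and this depth sets the counting intervals.

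The 10 members and all gene lists were chosen with earlier results of these data known. All 3143 cells had at least 10000 reads and 500 genes, so 0 were removed. Genes with a read in 5 cells were scaled to 100000 reads per cell and log transformed, and 2000 variable genes without the members were reduced to 30 components. A graph of 15 neighbours at Leiden resolution 1 gave 23 clusters. Clusters were named from markers of 13 classes. The class chosen had the highest mean log2 fold of markers over the remaining cells, with 10 CPM added, and needed 3 markers that were each read in 25% of the cluster. A cluster got no name if markers of a different class prevailed among its 10 leading genes, or if these held 3 cell cycle genes. After the data were seen, a cluster of 16 cells led by platelet genes was taken out of the endothelial-like class. No doublet caller was run.

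Reads were summed per class and group and per class and plate, and the authors' counts were divided by total counts for CPM. The labels name no animal, so no test between groups was run and no p-value is given. Intervals are exact at 95% (Poisson for sums, Clopper-Pearson for shares), and 3 counts serve as the floor for a sum of 0 reads. Code for the size rule was checked on simulated data. Named list genes are those meeting the size rule in mesangial-like cells and the 2 most abundant measured members of each list. Genes most like a member are the 3 with the highest r, of which 1 is not reported here. Positions are from GENCODE vM21, matched by name for 42052 of 46517 names and by RefSeq synonym for 793 more. Clustering ran in scanpy 1.11.5 (leidenalg 0.10.2, scikit-learn 1.9.0, anndata 0.12.19), intervals in scipy 1.17.1, sums in pandas 2.3.3 and numpy 2.4.6 and plots in matplotlib 3.10.9, all under Python 3.11.15. An alternative scaling used edgeR 4.0.16 under R 4.3.3.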

Additional observations from a re-analysis of the deposited data

Results flagged for a closer look

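In 59 groups of 4 to 6 plates, the highest or lowest plate was compared with the others of its group, and 14 had a plate far from the rest by Dixon's criterion. The criterion is set so that chance gives about 1 in 20 groups when values are normally distributed. Here it was applied to CPM without a log, on which a high plate can stand apart further than a low one. These groups also share plates, cells and genes, so the number found is not read against that rate. All 14 were high plates, and 6 of them were IgAN plate 325.

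On plate 325, Tnc was at 524.69 CPM in mesangial-like cells (other IgAN plates 6.43 to 180 CPM) and at 127.95 CPM in T or NK-like cells (0.13 to 1.95 CPM). T or NK-like cells of that plate also had 1529.68 CPM of Sparc (70.3 to 267 CPM) and 454.35 CPM of Cyr61 (4.59 to 48.5 CPM). Its proximal tubule-like cells had 133.24 CPM of Fn1 (1.65 to 18.7 CPM) and 444.48 CPM of Ctgf (11.9 to 69.5 CPM).

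IgAN plate 313 stood out in macrophage or dendritic-like cells, with 575.50 CPM of Fn1 (other IgAN plates 8.41 to 217 CPM) and 709.58 CPM of Thbs1 (28.2 to 266 CPM), and in T or NK-like cells with 46.20 CPM of Thbs2 (0.40 to 4.18 CPM). IgAN plate 318 had 355.63 CPM of Ctgf in macrophage or dendritic-like cells (6.30 to 107 CPM).

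Among Control plates, 326 had 665.38 CPM of Thbs1 in macrophage or dendritic-like cells (other Control plates 78.8 to 125 CPM) and 15.88 CPM of Ctgf in T or NK-like cells (4.94 to 6.68 CPM). Plate 314 had 4093.92 CPM of Sparc in endothelial-like cells (3666 to 3734 CPM) and 591.83 CPM in macrophage or dendritic-like cells (81.2 to 151 CPM).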

How the results depend on the processing

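Of 143 recomputed counts of members that met the size rule, 136 stayed within 1.5 times the value given and 7 did not, and no difference changed sign where it had met the rule. These counts pool both directions. No share of all genes was computed for these alternatives, so their counts have no background beside them. Leaving out a plate can also make the groups easier to separate. In podocyte-like cells without plate 313, only IgAN plate 316 had 10 cells, and 1 cell held all its Tnc reads. For mesangial-like cells, resolution 0.5 kept 3 with Postn (lower) in place of Fn1, and the gate left 2, Ankrd1 (higher) and Postn (lower). Without the filter on low values, 1 member met the rule in podocyte-like cells (Thbs2, lower in IgAN) in place of 0. Leaving out 1 plate at a time gave 3 to 4 members in mesangial-like cells, 0 to 1 in endothelial-like cells (1 without plate 313, Spp1), 0 to 1 in podocyte-like cells (Tnc without 313, Ctgf without 316 or 321), 0 to 1 in macrophage or dendritic-like cells (Spp1 without 313), 0 to 1 in T or NK-like cells (Ctgf without 326) and 2 to 4 in proximal tubule-like cells. In mesangial-like cells Ankrd1 met the rule in all 24 alternatives run, with log2 differences of 3.74 to 9.27, Spp1 in 23 and Fn1 in 22. Both ends of that range came from the added count, 5 CPM and 0.1 CPM. Ankrd1 had 0 reads in Control mesangial-like cells, so alternatives in scaling or added count could not change the order of its plates. Those alternatives therefore do not bear on whether its call holds. TMM and median of ratios scaling moved the median log2 of all genes in proximal tubule-like cells by -0.28 and -0.29. The cause of these changes was not tested. The alternative without cells that carry markers of 2 of the podocyte, mesangial and endothelial classes left 0 mesangial-like and 0 podocyte-like cells and was not run there, nor in macrophage or dendritic-like cells, where no Control plate kept 10 cells. The alternatives on tubule-marker carriers, endothelial carriers, the Fbln5-led and platelet-led clusters and the 100 CPM threshold were chosen after seeing the data. No paired analysis was possible because the labels give no replicate numbers. The number of cells limits the share of Ankrd1 in Control, where 0 of 51 mesangial-like cells had a read.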
